A study of Homo sapiens with 4 samples.

Results

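The genes of the ATF4 and CHOP stress response were examined in prostate cancer cells exposed to atorvastatin (ATO), a statin. The genes were ATF4, ATF3, DDIT3 (which encodes the protein CHOP), DDIT4, TRIB3, CHAC1, ASNS, SESN2, GDF15 and VLDLR. They were selected by name: each gene probe of the array whose gene name matched was taken, and no measured value entered this rule. The list of genes itself was chosen with earlier results of these data known, so the shares set beside it below are descriptions. All 10 genes were found among 27274 gene names, with 15 of 34127 probes and 24 of 43118 gene spots. LNCaP and PC3 are established human prostate cancer lines. LNCaP growth depends on androgen, whereas PC3 cells grow without it and lack functional p53. RNA from each line was hybridized to Agilent arrays of 1 colour, which gave 4 groups of 1 array each. LNCaP control and PC3 control were cells with no treatment, and LNCaP ATO and PC3 ATO were cells kept in 10 µM ATO for 24 h. All of the cells grew in RPMI medium with serum. The ATO stock was made in DMSO according to the methods of the study, and the labels of the controls name no vehicle. There were no replicates, so no difference within a line could be set against the spread between cultures and p-values within a line were not calculated.

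ATF4 is a transcription factor of the integrated stress response. When a stress kinase phosphorylates the initiation factor eIF2alpha, most translation slows while translation of ATF4 mRNA increases, and ATF4 protein then switches on genes for amino acid supply, redox balance and, through CHOP, cell death. Because ATF4 is controlled in large part by translation, the level of its mRNA is only part of its activity. Statins inhibit HMG-CoA reductase, the enzyme that makes mevalonate, the precursor of cholesterol and of the lipid groups attached to small GTPases. The question was how the mRNA of these genes differed between ATO and control in each line, and between the lines.

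ATF4 and its partners recognize a composite element made of C/EBP and ATF parts, with the letters TGATGNAA (N is any base). It was searched on both strands of the 250 bases before each gene start in the RefSeq promoters of GRCh38.p14, where all 10 genes had an entry. It was found in 3 of the 10 genes, ATF3, ASNS and CHAC1, and in 3.89% of 27305 genes with an entry (3.14% of 35116 promoters). The stretches that hold a match are shown because these 3 genes differ in how far they stood above control. Each reads 5′ to 3′ along the strand of its gene, and capitals mark the matches.
ATF3: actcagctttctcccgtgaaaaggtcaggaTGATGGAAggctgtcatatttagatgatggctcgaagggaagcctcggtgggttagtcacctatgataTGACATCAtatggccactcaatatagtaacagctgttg
CHAC1: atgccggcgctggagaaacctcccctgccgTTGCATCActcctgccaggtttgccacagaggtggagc
ASNS: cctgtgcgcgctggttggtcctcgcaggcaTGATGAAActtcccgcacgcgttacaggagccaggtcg

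The ATF3 stretch is chr1:212565186-212565321 on the plus strand, with the element at position -191 from the gene start. Its second run of capitals, at position -123, is a match to TGACNTCA, a relative of the cAMP response element. The CHAC1 stretch is chr15:40953232-40953299 on the plus strand, and its element lies on the opposite strand at position -209. The ASNS stretch is chr7:97872439-97872506 on the minus strand, with the element at position -68. ATF3 and ASNS each had 2 promoters with their own start, and the element was in only 1 of the 2. CHAC1 had 1 promoter. TGACNTCA was found in ATF3 only among the 10 genes, and in 8.29% of all genes. The AP-1 letters TGANTCA were found in DDIT3 only, against 8.06% of all genes, and the CCAAT box (CCAAT) in 6 of 10, against 37.0%. The letters of one motif did not overlap those of another in the stretches shown. A match is a description of the sequence and not a measured site of binding, and the absence of a match says only that the letters are not in this window.

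Values are the processed intensity of a spot in scanner units, after background subtraction by the scanner software. For ratios, the log2 intensity was set relative to the 75th percentile of its array. A log2 ratio of 1 is a 2.0-fold difference, and genes were counted at 1.5-fold or more. Where a gene had several probes, the brightest represented it. Different probes bind with different strength, so intensities are compared between arrays for 1 probe and never between genes. Copies of a probe on 1 array gave a technical SD of 0.13 on the log2 scale for a ratio in either line. The scanner's own error estimate was near 0.20 for bright probes and higher for dim ones. Both cover the array only, not the culture or the RNA. In a lysate of whole cells, less RNA per cell cannot be told apart from fewer cells that express a gene.

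No gene spot was saturated (0 on each array), and between 48.5% and 52.9% of them were well above background. Of the arrays, LNCaP ATO, PC3 ATO and PC3 control had 11.7%, 9.44% and 4.76% of gene spots in a bright local background (more than 1.5 times the median of the array), and LNCaP control had 0%. The labels of the lines were checked with 5 LNCaP and 6 PC3 markers. All 5 LNCaP markers, among them KLK3 and KLK2, were at least 2.0-fold higher in LNCaP control, and all 6 PC3 markers, among them CAV1 and VIM, in PC3 control. The PC3 markers had a summed signal of 222 units in LNCaP control and 405 units in LNCaP ATO, and each was higher with ATO. They stood at 0.117% to 6.67% of their PC3 control signal in LNCaP ATO, and CAV1, CD44 and AXL were not well above background on either LNCaP array. Dim spots in general read higher on LNCaP ATO. With dim probes kept, 38.1% of 27224 genes were 1.5-fold higher there than in LNCaP control, and 4.79% were lower. Among the 13739 genes measured in LNCaP, 2.77% were 1.5-fold higher. VIM and S100A4 were well above background on both LNCaP arrays and were 1.5-fold higher with ATO. VIM read 65.3 units in LNCaP control and 138 in LNCaP ATO (log2 ratio 0.98), and S100A4 read 97.9 and 175 units (0.74). ANXA1 was well above background in LNCaP control only and had no measurable difference. The LNCaP markers had a summed signal of 541 units in PC3 control and 944 units in PC3 ATO. TMPRSS2 accounted for 392 and 770 of these units, while KLK3, KLK2 and FOLH1 were not well above background. The part of these differences in the values below was not tested.

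In PC3 cells, 9 of the 10 genes could be measured, and all 9 were at least 1.5-fold higher with ATO. The background was 8.2% of 13815 genes that were 1.5-fold higher, with 10.3% lower. The median log2 ratio of the 9 was 1.49, against -0.01 for all genes, and 6 of the 9 were 2.0-fold higher or more. In LNCaP cells all 10 could be measured and all 10 ratios lay above 0, but they were small. CHAC1, DDIT4 and GDF15 reached 1.5-fold (3 of 10), where the background was 2.77% of 13739 genes higher and 1.99% lower, and the median was 0.45 against 0.00 for all genes. The share of higher calls over all genes moved with the scaling, from 58.2% of calls to 75.1% with spike-in probes in LNCaP, and from 44.4% to 70.3% (50th percentile) and 31.8% (spike-in probes) in PC3.

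**Figure D1:**
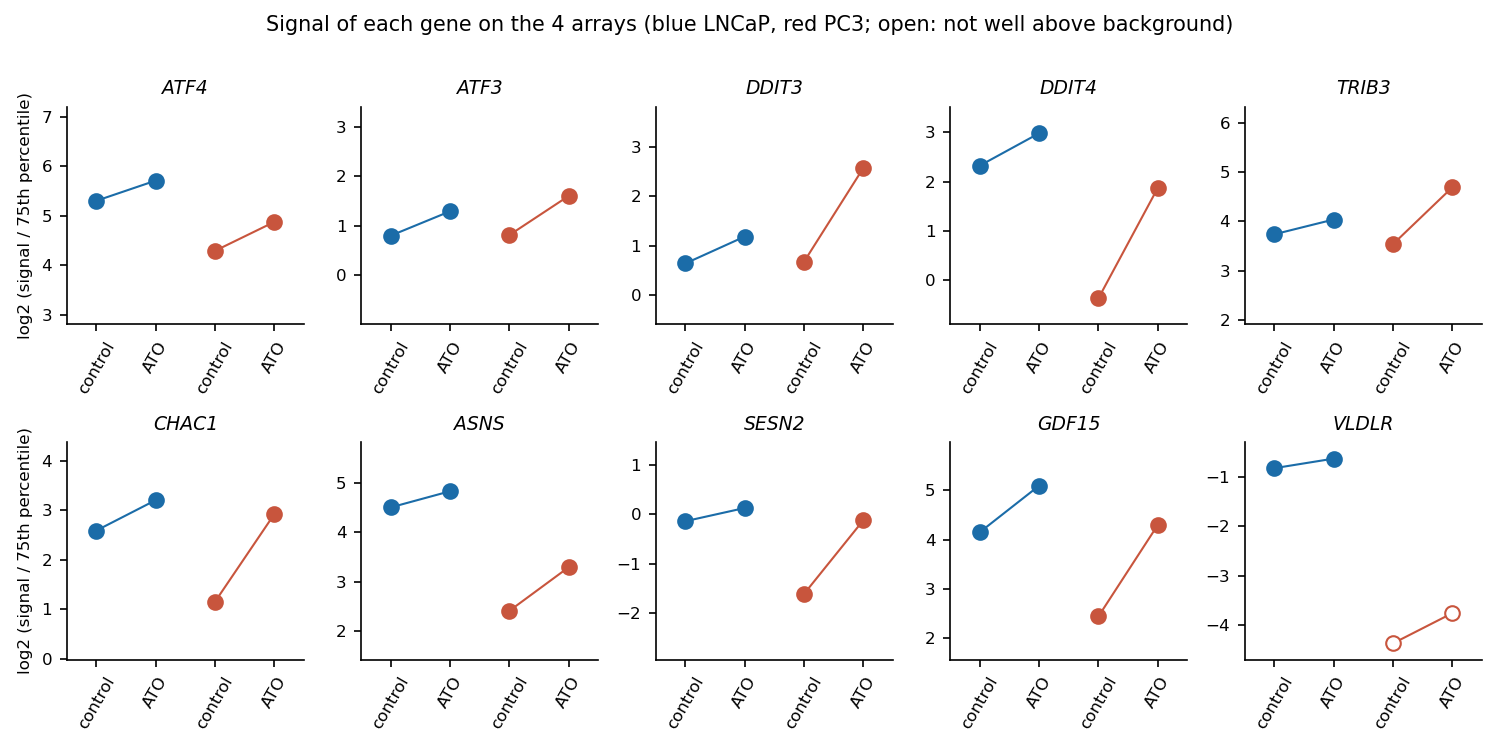
Log2 signal relative to the 75th percentile of the array (y axis; each panel has its own range of equal height) for each gene on the 4 arrays (x axis). Each point is 1 array, lines join control and ATO of a line, and open points were not well above background. The slope is steeper in PC3 than in LNCaP for each of the 9 genes measured in both, and 7 of the 10 genes started at least 2.0-fold lower in PC3 control than in LNCaP control.

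ATF4, the factor that gives the response its name, had the smallest PC3 ratio of the 9 genes. Its probe (chr22:38248523-38248582 on hg18, plus strand) read 19616 units in the LNCaP control and 27902 with ATO, and 11513 units in the PC3 control and 16701 with ATO. Both ATO arrays were higher than their controls, and both LNCaP arrays were higher than both PC3 arrays. ATO over control was 0.41 on the log2 scale in LNCaP (1.33-fold) and 0.58 in PC3 (1.5-fold). The PC3 value sits on the 1.5-fold threshold (0.58 on the log2 scale), and whether it is counted depends on the scaling. It was 0.55 with quantile normalization, 0.58 with cyclic loess and 0.50 with spike-in scaling, all under the threshold, and 0.78 with the 50th percentile.

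DDIT3 encodes CHOP, a factor that ATF4 induces and that promotes apoptosis when stress persists. Its probe (chr12:56197467-56197793, minus strand, 60 bases that span 327 bases of the genome) read 775 (control) and 1210 units (ATO) in LNCaP, against 939 and 3383 units in PC3. The controls of the lines were alike, with a log2 ratio of 0.03 between them on the 75th percentile scale, which ranged from -0.41 to 0.54 over the scalings. The PC3 ATO array stood apart from the rest. With ATO the log2 ratio reached 0.54 in LNCaP (1.46-fold) and 1.90 in PC3 (3.73-fold), where it ranked 28 of 13815 genes by ratio.

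ATF3, another stress factor of the same family and a target of ATF4, had 4 probes. The brightest, at chr1:210860479-210860538, read 865 (control) and 1305 units (ATO) in LNCaP and 1033 and 1730 units in PC3, with log2 ratios of 0.49 and 0.79. The probe at chr1:210855125-210855184 gave 0.41 and 0.65, close to these. The dim probe at chr1:210859460-210859519 read 64.2 units in PC3 control and 173 in PC3 ATO, a log2 ratio of 1.48, with 0.29 in LNCaP. The dim probe at chr1:210859142-210859201 gave -0.34 in LNCaP and 0.22 in PC3. The probes therefore disagreed, in LNCaP in sign, and the scanner error of the dim probes was 0.26 to 0.33. The median of the 4 probe ratios was 0.35 in LNCaP and 0.72 in PC3. With the median level of the 4 probes taken on each array before the ratio, which can draw on different probes, the PC3 value was 0.51, under 1.5-fold.

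**Figure D2:**
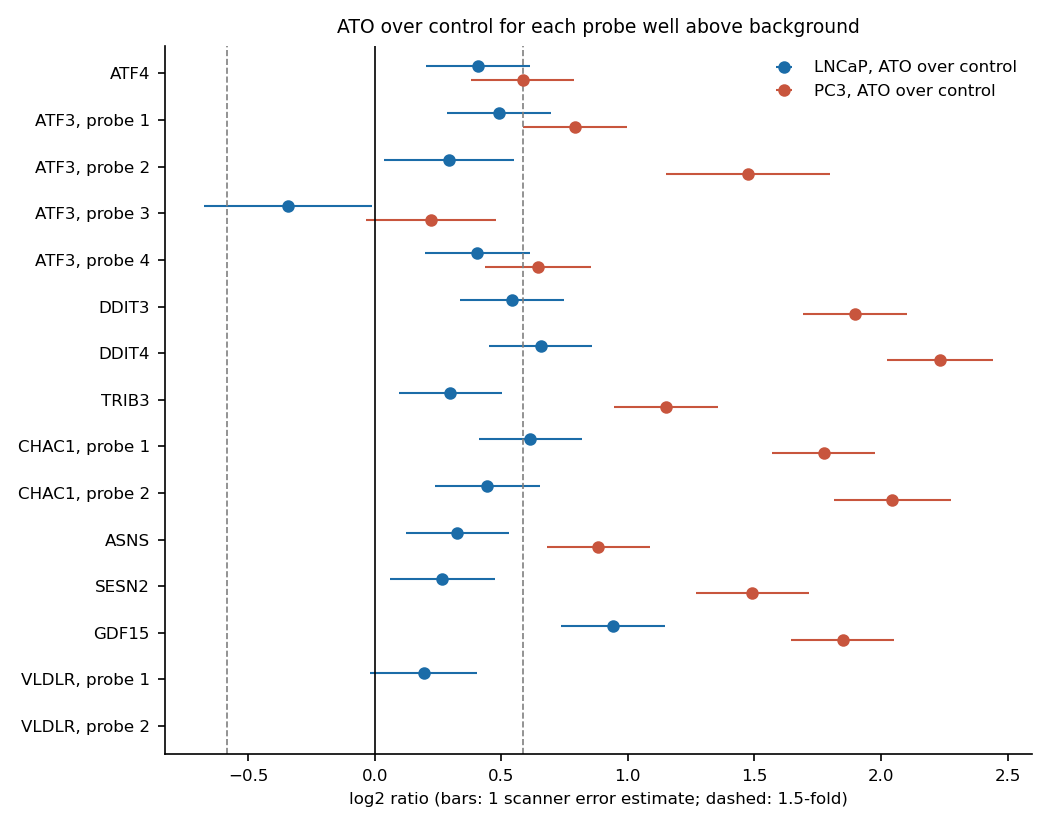
Log2 ratio of ATO over control (x axis) for every probe of the 10 genes (y axis), with LNCaP in blue and PC3 in red. Bars are 1 error estimate of the scanner software, which covers the array only, and dashed lines mark 1.5-fold. In ATF3 the probes spread from -0.34 to 0.49 in LNCaP and from 0.22 to 1.48 in PC3, while both CHAC1 probes lie above 1.7 in PC3. The dim VLDLR probe has no ratio.

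TRIB3, ASNS and CHAC1 are targets that feed back on the response or serve metabolism. TRIB3 encodes a pseudokinase that binds ATF4 and restrains AKT signaling. Its probe (chr20:326107-326166) read 6634 (control) and 8750 units (ATO) in LNCaP and 6838 and 14681 units in PC3. The controls again lay close together, at a log2 ratio of -0.20 that turned to 0.31 with spike-in scaling. The ratio with ATO was 0.30 in LNCaP (1.23-fold) and 1.15 in PC3 (2.22-fold). ASNS makes asparagine and is the classic gene induced by amino acid shortage. Its probe (chr7:97319397-97319456) read 11253 and 15133 units in LNCaP control and ATO, and 3126 and 5575 units in PC3 control and ATO. Log2 ratios were 0.33 for LNCaP and 0.88 for PC3 (1.84-fold), and even PC3 ATO stayed 2.31-fold below LNCaP control. CHAC1 degrades glutathione and is a late target of the ATF4 and CHOP axis. Its brighter probe (chr15:39035923-39035982) read 2996 (control) and 4921 units (ATO) in LNCaP and 1307 and 4319 units in PC3. These gave 0.62 in LNCaP (1.53-fold) and 1.77 in PC3 (3.42-fold). The second CHAC1 probe (chr15:39035106-39035165) gave 0.44 and 2.04, so the direction was shared by both probes in each line, but only 1 of them reached 1.5-fold in LNCaP. On LNCaP ATO this second probe lay in a bright local background, and the part of that in its ratio was not tested.

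The genes with an ATF4 element in the window shown above thus had PC3 ratios of 1.77 (CHAC1), 0.88 (ASNS) and 0.79 (ATF3), both above and below the median of 1.49. DDIT4 and DDIT3, which had no match in that window, had the highest ratios of the 9 in PC3.

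DDIT4 and SESN2 encode inhibitors of the growth kinase mTORC1 that respond to several stresses. DDIT4 was the only one of the 10 genes with 10 copies of its probe (chr10:73705369-73705428). It read 2483 (control) and 4192 units (ATO) in LNCaP and 458 and 2081 units in PC3, with an SD between copies of 0.04 to 0.08 on the log2 scale. This is 0.66 in LNCaP on the log2 scale (1.57-fold) and 2.23 in PC3 (4.70-fold), rank 9 of 13815 in PC3. The PC3 control array was far below the rest, and PC3 ATO remained 1.37-fold below LNCaP control. Some DDIT4 copies on PC3 ATO lay in a bright local background, which was so for no other representative probe of the 10 genes. SESN2 (chr1:28480781-28480840) read 451 (control) and 582 units (ATO) in LNCaP and 192 and 523 units in PC3. Its log2 ratio was 0.27 for LNCaP and 1.49 in PC3 (2.81-fold). PC3 ATO differed from LNCaP control by only 0.02 on the log2 scale, less than the technical SD.

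GDF15 encodes a secreted cytokine of the TGF-beta superfamily that cells release under mitochondrial, p53 or ATF4 stress. Its probe (chr19:18360890-18360949) read 8812 (control) and 18145 units (ATO) in LNCaP and 3208 and 11177 units in PC3. This was the largest LNCaP ratio of the 10 genes, at 0.94 (1.92-fold), and the PC3 ratio was 1.85 (3.60-fold). The controls differed by a log2 ratio of -1.70, and PC3 ATO stood 0.15 above LNCaP control, near the technical SD.

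VLDLR, the very low density lipoprotein receptor, is an ATF4 target in other cells. It could be read in LNCaP only. Its brighter probe (chr9:2643897-2643956) read 280 units in LNCaP control and 344 in LNCaP ATO, a log2 ratio of 0.19 (1.14-fold) that is within the scanner error of 0.21. It read 28.5 units in PC3 control and 42.1 in PC3 ATO, neither well above background, so no PC3 ratio is given. LNCaP control was at least 6.37-fold higher than PC3 control. The second probe (chr9:2633220-2633279) was not well above background on any of the 4 arrays, and a ratio of the median levels over both probes, 1 of them dim, was -0.22 in LNCaP.

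**Figure D3:**
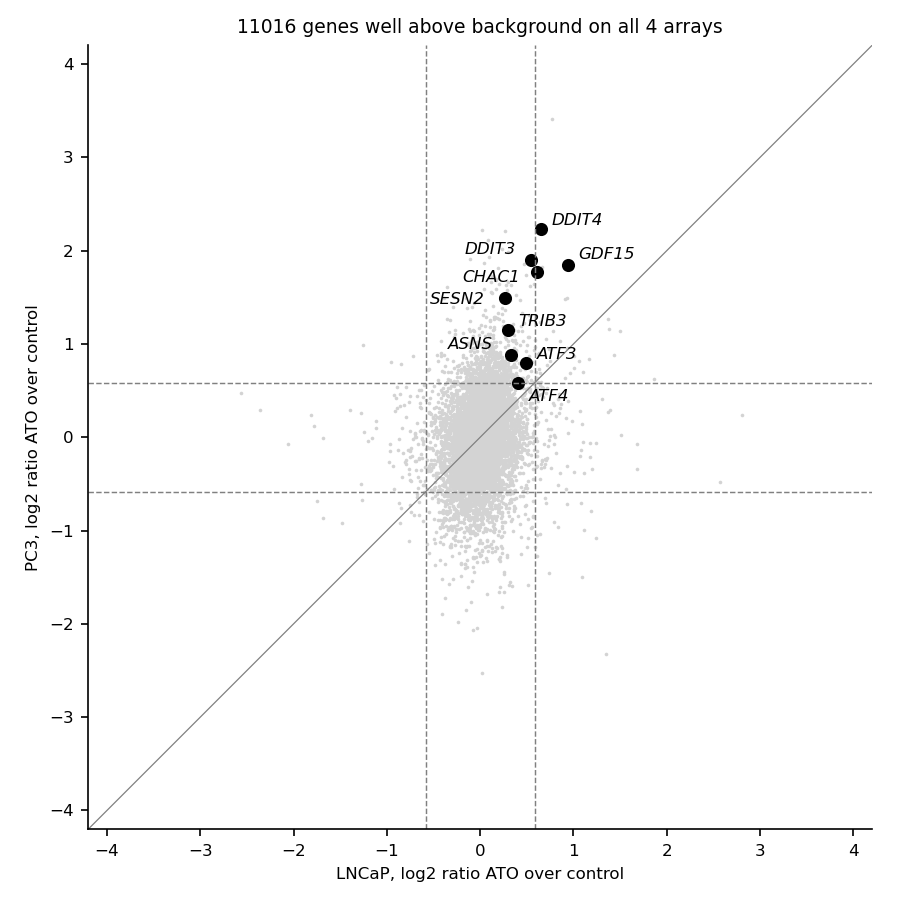
Log2 ratio of ATO over control in LNCaP (x axis) and PC3 (y axis) for 11016 genes well above background on all 4 arrays (grey; 3 lie beyond the axes), with 9 of the 10 genes in black. Dashed lines mark 1.5-fold and the diagonal marks equal ratios. All 9 lie above the diagonal and to the right of 0.

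When the lines were set side by side, the ratio was higher in PC3 than in LNCaP for all 9 genes measured in both, with a median difference of 0.91 on the log2 scale against -0.00 for all genes. The difference was at least 1.5-fold for 6 of 9 (DDIT4 1.58, DDIT3 1.35, SESN2 1.22, CHAC1 1.16, GDF15 0.91 and TRIB3 0.85), where the background was 6.03% of 11016 genes. It was smaller for ASNS (0.56), ATF3 (0.30) and ATF4 (0.18), and with spike-in scaling the difference of ATF4 was -0.04. With 1 array per group the difference between the lines was not tested.

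The genes that reached 1.5-fold in both lines were DDIT4, CHAC1 and GDF15, 3 of the 9 measured in both, against 0.359% of 11991 genes. Ratios above 0 in both lines were seen for 9 of 9, against 29.1%. A joint fit with limma took the lines as a block and had 1 residual degree of freedom. In it the lines stood in for replicates. Its error for a gene, moderated across genes, thus comes from the difference of the ATO ratio between the lines, not from the spread between cultures. No gene passed (0 of 11902 tested, 0.0%), and the adjusted p-value by limma of each of the 9 genes was 0.762. At an unadjusted p under 0.05, 7 of the 9 were higher (all but TRIB3 and SESN2; 3 to 9 under other settings), against 1.99% of all genes, and 532 genes reached that level in either direction. The largest of the 9 mean ratios was DDIT4 at 1.44 ± 0.44 (SE), followed by GDF15 at 1.40 ± 0.27 and DDIT3 at 1.22 ± 0.38.

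Before treatment the levels of most of the genes were higher in LNCaP. In the controls 7 of 10 were at least 2.0-fold higher in LNCaP (ATF4, DDIT4, CHAC1, ASNS, SESN2, GDF15 and VLDLR), where the background was 19.0% of 15237 genes, and 0 were 2.0-fold higher in PC3, against 20.6%. The median log2 ratio of PC3 control over LNCaP control was -1.46, against -0.05 for all genes. With spike-in scaling, which moved the median of all genes by 0.43, 4 of 10 were counted (DDIT4, ASNS, GDF15 and VLDLR) and the median was -0.95. The share of calls over all genes that were higher in PC3 was 52.0%, and it was 32.3% (50th percentile) or 75.4% (spike-in probes) with other scalings. ATF3, DDIT3 and TRIB3 were within 0.20 of each other in the controls, and the direction of each flipped between scalings.

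The order of the 4 arrays therefore differed by gene. For ATF4, DDIT4, ASNS and VLDLR both PC3 arrays were below both LNCaP arrays, but with spike-in scaling PC3 ATO minus LNCaP control was -0.0024 for ATF4 and -0.02 for DDIT4, inside the technical SD. For CHAC1, SESN2 and GDF15 the order was PC3 control, LNCaP control, PC3 ATO, LNCaP ATO, with SESN2 in LNCaP control and PC3 ATO not separable. This order turned with the scaling. With spike-in scaling PC3 ATO was above LNCaP ATO by 0.01 for CHAC1 and 0.05 for SESN2, and with the 50th percentile PC3 ATO differed from LNCaP control by -0.10 for GDF15 and -0.23 for SESN2. For DDIT3, ATF3 and TRIB3 the highest array was PC3 ATO, 2.62-fold, 1.24-fold and 1.57-fold above LNCaP ATO. For ATF3 this lead was only 0.08 on the log2 scale with the 50th percentile, inside the technical SD.

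Other genes of the pathway were then counted from lists of known genes. Over all genes, 8.2% were 1.5-fold higher in PC3 and 10.3% lower, with 2.77% higher and 1.99% lower in LNCaP. These shares are the background for each list below, and the counts of the short lists were not tested against them. A list of 9 genes held eIF2alpha itself (EIF2S1), its kinases and phosphatase subunits, and regulators of the kinase GCN2. Of these, 8 were measured in each line. Their median was -0.01 in LNCaP and 0.06 in PC3, and only EIF2AK3, which encodes the endoplasmic reticulum kinase PERK, was counted. EIF2AK3 read 77.2 units in PC3 control and 214 in PC3 ATO, a log2 ratio of 1.52. In LNCaP it was well above background in the control only and no difference was measurable. None of the 8 was counted as lower in either line.

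A list of 5 genes, all measured, held factors that pair with ATF4 or CHOP, together with NUPR1, which is not a factor of that family. NUPR1, a stress protein, had a log2 ratio of 1.47 in PC3 and 0.32 in LNCaP. CEBPG was 0.62 in PC3 and -0.04 in LNCaP, and CEBPB 0.43 and 0.25. JDP2 was 0.22 in PC3 and 0.45 in LNCaP. ATF5, itself a gene with translation controlled like that of ATF4, was -0.50 in PC3 and 0.17 in LNCaP. Thus 2 of 5 (NUPR1 and CEBPG) were counted as higher in PC3, and 0 of 5 in LNCaP.

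The medians of the lists for amino acid supply lay nearer to 0 than those of the 10 genes, which does not hold for every single gene. Of 8 measured genes for amino acid synthesis and one-carbon metabolism, 1 was counted as higher in PC3 and 0 in LNCaP, with medians of 0.08 and 0.11. Of 8 genes for tRNA charging and amino acid transport, 1 was counted as higher in each line, with medians of 0.19 in PC3 and 0.15 in LNCaP. The PC3 count was SLC7A11, the cystine transporter subunit, which had a log2 ratio of 1.27 in PC3 and -0.36 in LNCaP. The LNCaP count was SLC7A5 (0.73), and the synthesis gene counted in PC3 was PYCR1 (0.61). SLC7A5 was dim in LNCaP, at 51.9 units in control and 92.2 with ATO, on arrays where dim spots in general read higher with ATO.

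Among 5 targets of CHOP in cell death, 2 were counted as higher in PC3. The median of this list was 0.08 in PC3 and 0.07 in LNCaP. BBC3, which encodes the BH3 protein PUMA, read 434 (control) and 559 units (ATO) in LNCaP and 94.5 and 422 units in PC3. Its log2 ratio was 2.21 in PC3 and 0.27 in LNCaP. PMAIP1, another BH3 gene, was 0.91 in PC3 and 0.64 in LNCaP, the 1 higher count there, and BCL2L11 (-0.79) was the 1 lower count in LNCaP. In PC3 BCL2L11 was -0.29. TNFRSF10B was 0.08 in PC3 and -0.04 in LNCaP, and ERO1L was -0.14 in PC3 and 0.07 in LNCaP. Of 7 other measured ATF4 targets, 3 were counted as higher in PC3, among them HERPUD1, a gene of protein degradation at the endoplasmic reticulum (1.70), and KLHL24 (1.49). Their LNCaP ratios were 0.17 and -0.15. The third was VEGFA, at 0.89 in PC3 and -0.46 in LNCaP, and FGF21 (0.76) was the 1 counted in LNCaP. FGF21 was dim there, at 36.9 units in control and 67.1 with ATO. Dim spots in general read higher on LNCaP ATO, and the part of that in its ratio was not tested.

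**Figure D4:**
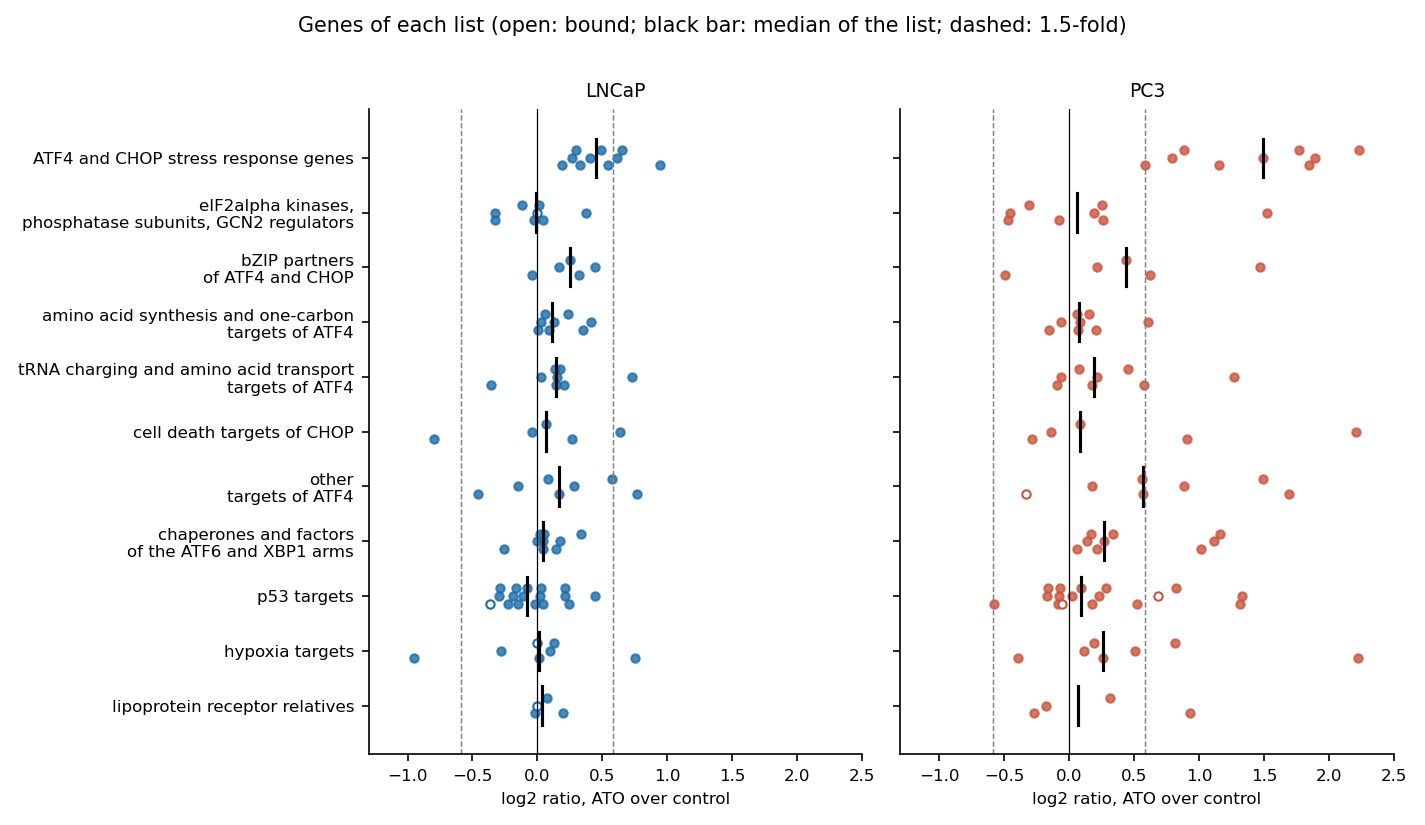
Log2 ratio of ATO over control (x axis) for the genes of each list (y axis) in LNCaP (left) and PC3 (right). Each point is 1 gene, open points are bounds, black bars are the medians of the lists and dashed lines mark 1.5-fold. The 10 genes have medians of 0.45 and 1.49, and each of the other lists has a median of 0.57 or less in PC3.

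The neighbouring arms of the stress response were covered by 9 chaperones and factors of ATF6 and XBP1, all measured. In PC3 all 9 ratios were above 0 and 3 were counted as higher: HSPA5, the chaperone BiP (1.16), DNAJB9 (1.12) and XBP1 (1.02). The median was 0.27 in PC3 and 0.04 in LNCaP, where 0 were counted. Several of the 10 genes also respond to p53 or to low oxygen, so these lists were added. Of 17 p53 targets 4 were counted as higher in PC3, against 8.2% of all genes, and 0 in LNCaP, against 2.77%. These were TP53INP1 (1.33), CDKN1A (1.31), TP53I3 (0.82) and ZMAT3 (a bound of 0.68). The LNCaP ratios of TP53INP1 and CDKN1A were 0.45 and 0.03, and the median of the list was 0.09 in PC3 and -0.08 in LNCaP. Of 7 measured hypoxia targets 2 were counted as higher in PC3, NDRG1 (2.23) and ANKRD37 (0.81), with LNCaP ratios of 0.01 and -0.95. In LNCaP P4HA1 (0.76) was counted as higher and ANKRD37 as lower. The choice to name SLC7A5, PYCR1, PMAIP1, BCL2L11, VEGFA, FGF21, TP53I3, ZMAT3, ANKRD37 and P4HA1 followed a look at their values. TNFRSF10B and ERO1L were named so that their list is given whole. Some of the list genes named had a spot in a bright local background on at least 1 array. They were SLC7A11, SLC7A5, ATF5, CEBPB, JDP2, BCL2L11, ERO1L, XBP1, NDRG1, P4HA1, LRP1, LRP5, ZMAT3 and ANKRD37. The part of that background in their values was not tested.

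VLDLR was set beside 5 related receptors of the LRP family. LRP1 was measured only in PC3, at 0.93. LRP8 was 0.07 and 0.32, LRP5 -0.02 and -0.27, and LRP6 0.20 and -0.18, in LNCaP and PC3. LRP2 was well above background only in LNCaP control and had no measurable difference.

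The genes whose pattern over the 4 arrays was nearest to DDIT3 and GDF15 were found among 11007 genes by the distance between log2 values centred on their mean. PNRC1 was nearest to DDIT3, at a distance of 0.35, followed by MXD1 (0.37) and PRPH (0.39). JUND was nearest to GDF15, at 0.48, followed by VMAC (0.49) and PVRL4 (0.57). With 4 arrays these are descriptions of shape alone.

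**Figure D5:**
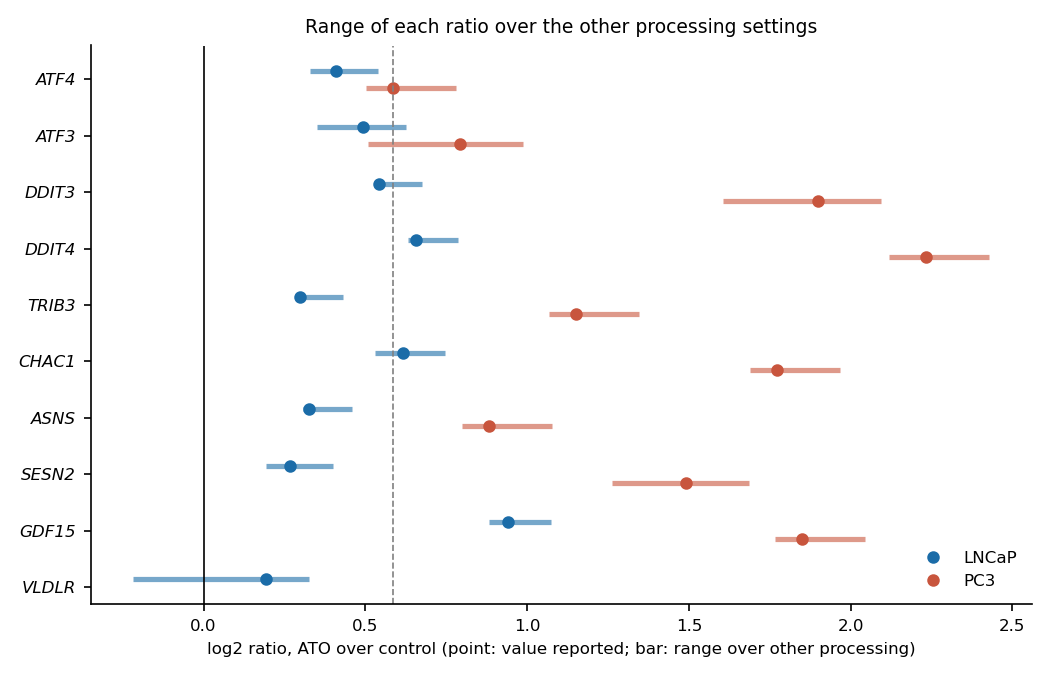
Log2 ratio of ATO over control (x axis) for each gene (y axis) in LNCaP (blue) and PC3 (red). Points are the values reported and bars span the 10 other settings of scaling, background, probe choice and filtering (9 for DDIT4 in PC3), and the dashed line marks 1.5-fold. Only VLDLR in LNCaP crosses 0, and the bars of ATF4 and ATF3 in PC3 and of ATF3, DDIT3 and CHAC1 in LNCaP cross 1.5-fold.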

How the data were processed

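RNA from LNCaP and PC3 cells was read on 4 Agilent 4x44K arrays, 1 per group, grouped by the labels. Per the file headers, the authors used Agilent Feature Extraction 9.5.3.1, which subtracted background and wrote intensity values, error estimates and yes or no calls (other values) for each spot, with probe coordinates on hg18. The authors also deposited a table of ratios, found to be each processed intensity divided by its array's 75th percentile, since between 99.2% and 99.9% of probes above 1 lay within 2.0% of that ratio. GeneSpring, named in the methods, was not rerun.

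Outlier spots were left out, log2 intensity was averaged over the copies of a probe, and the 75th percentile over probes was subtracted. The brightest of the probes with usable spots on all 4 arrays represented a gene. Genes well above background on at least 1 array of a comparison were counted at 1.5-fold (lines) or 2.0-fold (controls). A gene well above background on 1 array has a bound, written "at least". The joint fit used limma 3.58.1 in R 4.3.3 (lmFit and eBayes, two-sided, Benjamini-Hochberg). Its code was tried on simulated data with the same effect in both lines. That trial does not cover effects that differ between the lines, as those of these genes did. The number of arrays limits the precision.

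The genes, lists and thresholds were chosen with earlier results of these data known. Named genes were the 10 genes, the list of partners of ATF4 and CHOP with NUPR1, and 5 relatives of VLDLR. List genes measured on both arrays and at least 2.0-fold different in a line (up to 6 per list) were also named. So were the 3 nearest patterns to DDIT3 and GDF15. Lists were written from general knowledge. Exon positions on hg18 were not used here. Scaling, background, probe choice, filter and threshold were varied. Some items are not reported here.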

Additional observations from a re-analysis of the deposited data

Results flagged for a closer look

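Among the list genes named above, 7 had log2 ratios of opposite sign in the lines after ATO, each beyond the technical SD of 0.13, with 1 array per group. For KLHL24, ATF5 and LRP6 at least 1 of the ratios was no larger than the scanner error of about 0.20 for a bright probe. SLC7A11 had -0.36 in LNCaP and 1.27 in PC3, KLHL24 -0.15 and 1.49, and VEGFA -0.46 and 0.89. TP53I3 had -0.29 in LNCaP and 0.82 in PC3, and ANKRD37 -0.95 and 0.81. These values are from the brightest probe, and VEGFA and TP53I3 each had 1 other probe. For both genes the signs stayed opposite under each of the 10 other settings, the median over probes among them. The size was less stable, as the LNCaP ratio shrank to as little as -0.09 for VEGFA and -0.02 for KLHL24, inside the technical SD. ATF5 had 0.17 in LNCaP and -0.50 in PC3, and LRP6 had 0.20 and -0.18, where the PC3 value turned to 0.01 with the 50th percentile. None of the 9 stress response genes measured in both lines was among them. The differences between the lines were not tested.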

How the results depend on the processing

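All 10 ratios in LNCaP and all 9 in PC3 kept their sign under each setting, except VLDLR in LNCaP with the median level over probes on each array. With spike-in scaling 5 genes reached 1.5-fold in LNCaP in place of 3. The LNCaP count was 2 with normexp background, 2 with the median over probes, and 0 with a 2-fold threshold. In PC3 the median of 1.49 was 1.69 with the 50th percentile, 1.26 with normexp background, and 1.32 both with no filter on dim probes (10 genes) and with bright local backgrounds left out (8 genes, without DDIT4). Between 8 and 10 genes reached 1.5-fold in PC3 under the other settings of scaling and filter. In the controls the median of -1.46 was -1.90 with the 50th percentile, -1.28 with cyclic loess, -0.95 with spike-in scaling and -1.24 with the median over probes. The count of 7 genes higher in LNCaP was 4 with spike-in scaling and 3 with a 4-fold threshold. The median difference between the lines, 0.91, was 1.12 (50th percentile) and 0.69 (spike-in scaling). The cause of these shifts was not tested. Some scalings moved the median of all genes by more than 0.1. The 50th percentile moved it by 0.19 in PC3 and -0.44 in the controls, spike-in scaling by 0.13 in LNCaP and 0.43 in the controls, and no filter by 0.17 in LNCaP and 0.50 in the controls. In the limma fit 5 genes passed with the 50th percentile and none (0) with the other settings, and the smallest adjusted p of the 9 genes by limma ranged from 0.424 to 0.774. The 7 genes at an unadjusted p under 0.05 were 3 with no filter on dim probes and 9 with the 50th percentile, spike-in scaling, normexp background or an intensity trend in the prior.

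No paired analysis was possible because the labels carry no replicate numbers, beyond the limma fit itself, in which the line as a block pairs control and ATO. Leaving out a replicate was not possible either. Dim probes, such as those of VLDLR in PC3, limit what can be measured.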
